A study of Rattus norvegicus with 15 samples.

Results

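Gfap, Vim and Aif1, 3 genes whose RNAs are used to look for astrocytes and microglia, were followed through cultures of rat oligodendrocytes. They were taken by their identifiers, ENSRNOG00000002919 for Gfap, ENSRNOG00000018087 for Vim and ENSRNOG00000000853 for Aif1, which are 3 of the 30560 genes in each count table. The names are those given with the identifiers when the members were chosen, since no table used here pairs the files' identifiers with names. Per the labels, precursor cells came from mixed glial cultures of newborn Sprague-Dawley rat cortex, taken at postnatal days 0 to 2. The mixed cultures were kept for 8 to 10 days. Microglia were first shaken off, the precursors were detached by a further 18 h of shaking, and these then matured for 3 days in a defined medium. The 5 groups of 3 libraries were RNA immunoprecipitated (IP) with hnRNP A2 from cultures given oligomeric amyloid-β, the same from control cultures, RNA recovered with IgG from a pool of both treatments, input RNA of amyloid-β cultures and input RNA of control cultures. hnRNP A2 is an RNA-binding protein with a known part in messenger RNA transport in oligodendrocytes. The cells were unmodified primary cells, and the sources used here do not give the amyloid-β concentration or exposure in the cultures. Each group holds the numbers 2, 3 and 4 in its titles, and the design text calls the replicates biological.

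Oligodendrocyte precursors grow on top of a layer of astrocytes in mixed glial cultures, together with loosely attached microglia, and shaking separates the 3 cell types by how firmly they adhere. Gfap encodes glial fibrillary acidic protein, the intermediate filament protein by which astrocytes are usually recognised. Vim encodes vimentin, a related filament protein of astrocytes that is also made by glial precursors, microglia and connective tissue cells, so it marks no single cell type. Aif1 encodes IBA1, a calcium-binding and actin-binding protein of microglia and macrophages.

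Each hnRNP A2 library held 28056346 to 33168494 reads on genes, each IgG library 81463 to 4096829 and each input library 14773400 to 25751522. The IgG library numbered 2 was the one with 81463 reads, so a count of 3 there stands for 28.6 CPM. CPM set the counts of all libraries on one total, here after scaling by the trimmed mean of M values (TMM) over all 15 libraries. They are not corrected for transcript length, so they are compared between libraries and not between genes. The identifiers of oligodendrocyte markers and of further glial markers are not paired with names here, so the labelled cell type was not checked against them. In bulk RNA, fewer cells of a type and less RNA per cell cannot be told apart, and none of the levels can be read as a share of cells.

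All 3 marker RNAs were present in every input library. Gfap stood at 867, 532 and 763 CPM in the amyloid-β inputs numbered 2, 3 and 4, and at 823, 400.4 and 765 CPM in the control inputs of those numbers. The input numbered 3 was the lowest in both treatments, and the treatments overlapped. Over the 6 inputs the coefficient of variation of Gfap was 26.6%.

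Vim varied more. It stood at 759.5, 253 and 198 CPM in the amyloid-β inputs numbered 2, 3 and 4, against 698, 135 and 209 CPM in the control inputs. The inputs numbered 2 were far above the others in both treatments: their Vim level was 3.00-fold that of number 3 and 3.83-fold that of number 4 with amyloid-β, and 5.17-fold and 3.34-fold in control. The coefficient of variation of Vim over the 6 inputs was 73.8%.

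Aif1 took the opposite course over the numbers. It stood at 13.4, 38.2 and 47.3 CPM in the amyloid-β inputs numbered 2, 3 and 4, on counts of 234, 857 and 787. The control inputs had 15.3, 65.8 and 54.8 CPM, on counts of 257, 1279 and 550. Both inputs numbered 2 were the lowest of their treatment, at 35.2% and 28.4% of numbers 3 and 4 with amyloid-β and at 23.3% and 28.0% in control. The cultures numbered 2 thus had the highest level of Vim and the lowest of the microglial marker.

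**Figure D1:**
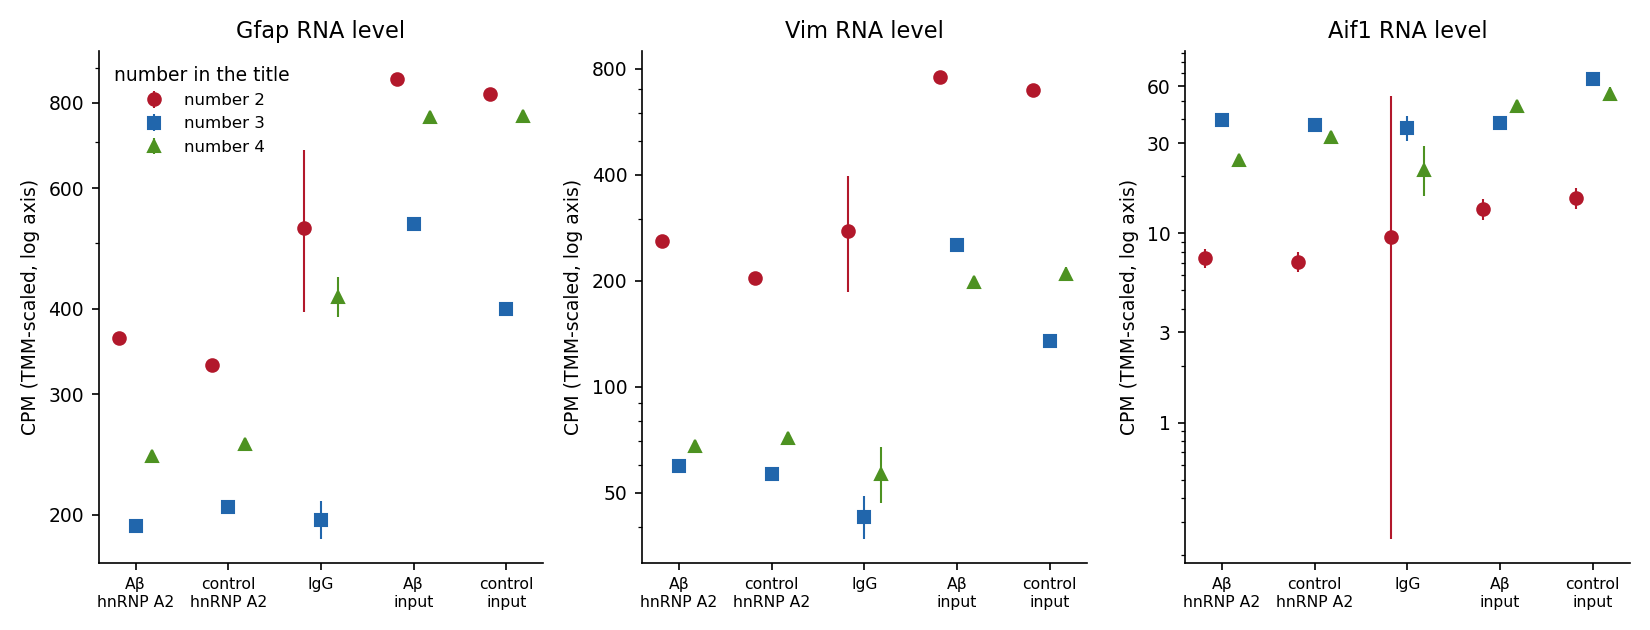
Level of Gfap, Vim and Aif1 in each of the 15 libraries, in TMM-scaled CPM on a log axis, by group; symbols and colours give the number in the title and bars are exact 95% Poisson intervals of the count, which cover counting error only. Vim was highest and Aif1 lowest in number 2 in all 5 groups, and the Aif1 value of the IgG library numbered 2 rests on 1 count.

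The spread over the numbers was tested in input with the treatment as a covariate, where the amyloid-β and control libraries of a number stand as its samples. A small p here says that same-numbered libraries lay close together relative to other numbers. The highest and lowest fitted number means differed by 1.87 for Vim and 1.91 for Aif1 on the log2 scale (edgeR adjusted p = 1.60e-08 and 2.12e-07). For Gfap the difference was 0.79 (edgeR adjusted p = 0.0860), which does not pass at 0.05. Thus 2 of the 3 genes passed, where 21.2% of the 13793 genes tested did. That share was unstable: the 2921 genes behind it became 985, 1267, 1608 and 1115 without the amyloid-β inputs numbered 2 and 4 and the control inputs numbered 2 and 4, and 6622 without the control input numbered 3. Vim and Aif1 passed in each of these fits. Gfap passed with DESeq2 (adjusted p = 0.0421) and without the amyloid-β input numbered 3 (log2 difference 1.00, edgeR adjusted p = 0.00417).

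The median gene differed by 0.66 between its highest and lowest number. A spread at least as large as that of Vim was found in 6.71% of the genes tested in input, and one as large as that of Aif1 in 6.31%. For Gfap this share was 39.4%, so its spread lay near the middle of all genes. With the libraries numbered 3 and 4 alone, a choice made after the values of number 2 were seen, Vim differed by 0.14 and Aif1 by 0.025 on the log2 scale (edgeR adjusted p = 0.871 and 0.981). Gfap then differed by 0.73 (edgeR adjusted p = 0.192), higher in number 4. For Vim and Aif1 the treatments went opposite ways. Vim in input number 3 was at 128% of number 4 with amyloid-β and at 64.7% in control. Aif1 was at 80.7% with amyloid-β and at 120% in control, so their small fitted differences are averages of opposite ones. Of all genes, 3.19% passed between these numbers. The input spread of Vim and Aif1 therefore rested on the libraries numbered 2.

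**Figure D2:**
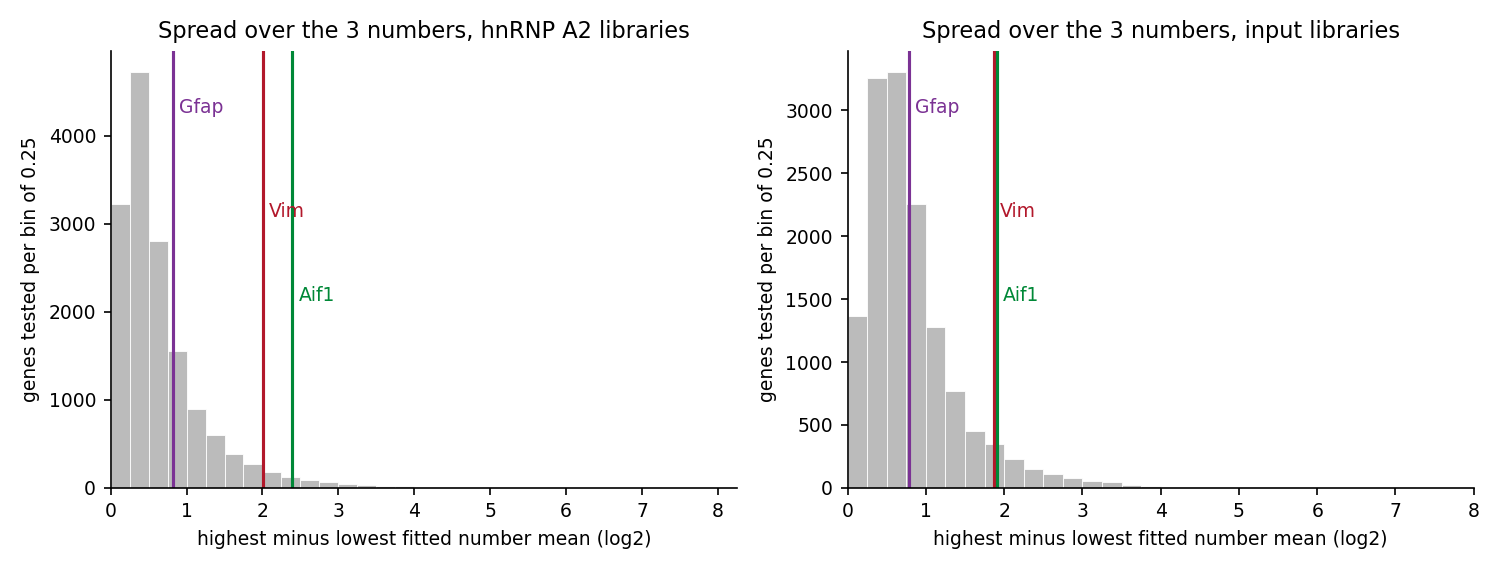
Number of genes by the log2 difference between their highest and lowest fitted number mean, in the 6 hnRNP A2 libraries (left) and the 6 input libraries (right), with vertical lines at the 3 marker genes. Vim and Aif1 lie in the right tail in both, at 2.01 and 2.39 in the hnRNP A2 libraries and at 1.87 and 1.91 in input, while Gfap lies at 0.82 and 0.79.

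Number 2 again held the extreme place in the immunoprecipitated RNA, a test added after the input values were seen. In the amyloid-β hnRNP A2 libraries numbered 2, 3 and 4, Vim stood at 259, 59.5 and 67.7 CPM, and in the control hnRNP A2 libraries at 204, 56.4 and 71.3 CPM. Number 2 was highest in both, and its fitted mean lay 2.01 above the lowest number on the log2 scale (edgeR adjusted p = 3.25e-14). Aif1 stood at 7.39, 39.6 and 24.3 CPM in the amyloid-β hnRNP A2 libraries and at 7.07, 37.2 and 32.4 CPM in the control hnRNP A2 libraries, on counts of 256 to 1466. Number 2 was again the lowest, by 2.39 from the highest number (edgeR adjusted p = 1.71e-12). Gfap stood at 362, 192 and 244 CPM in the amyloid-β hnRNP A2 libraries and at 331, 206 and 254 CPM in the control ones, with number 2 highest and number 3 lowest in both (log2 difference 0.82, edgeR adjusted p = 2.18e-07). All 3 genes passed, but so did 51.4% of all genes in these libraries. A spread at least as large was found in 4.23% of genes for Vim, 2.57% for Aif1 and 25.6% for Gfap. Between numbers 3 and 4 alone, where 18.7% of genes passed, Aif1 differed by 0.46 and Gfap by 0.31 (edgeR adjusted p = 0.00101 and 0.0108), while Vim differed by 0.25 (edgeR adjusted p = 0.0703).

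The IgG libraries hold 1 library per number, so no test of the number was made there. Vim stood at 277, 42.5 and 56.4 CPM in the IgG libraries numbered 2, 3 and 4, on 29, 198 and 117 counts. Aif1 stood at 9.54, 36.1 and 21.7 CPM, on 1, 168 and 45 counts, and the exact 95% Poisson interval of the first value reaches from 0.242 to 53.2 CPM. Gfap stood at 525, 197 and 417 CPM, on 55, 916 and 865 counts. Number 2 was highest for Vim and Gfap. Its exact 95% Poisson interval for Gfap, 395 to 683 CPM, holds the value of number 4, its interval for Aif1 holds those of both other numbers, and its interval for Vim, 185 to 398 CPM, holds neither.

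Ratios of the genes within a library need no scaling between libraries, and they set number 2 apart. There were 0.0286, 0.665 and 0.359 Aif1 counts per Vim count in the amyloid-β hnRNP A2 libraries numbered 2, 3 and 4, and 0.0346, 0.660 and 0.454 in the control hnRNP A2 libraries. The IgG libraries had 0.0345, 0.848 and 0.385. The amyloid-β inputs had 0.0177, 0.151 and 0.239, and the control inputs 0.0220, 0.487 and 0.262. Every library numbered 2 lay below every library of the other numbers. Within each group this order follows from the high Vim and low Aif1 levels already given, so it adds no separate support. The libraries carry only 3 numbers, so those of a number do not count as independent replicates. Gfap counts per Vim count were 1.14 to 1.90 in the 5 libraries numbered 2 and 2.10 to 7.39 in the other 10, again without overlap. The 1.90 is that of the IgG library numbered 2, with 55 Gfap, 29 Vim and 1 Aif1 counts. Counting error thus leaves its place in both ratios uncertain. The input and hnRNP A2 libraries numbered 2 reached at most 1.62. Numbers 3 and 4 overlapped in both ratios.

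**Figure D3:**
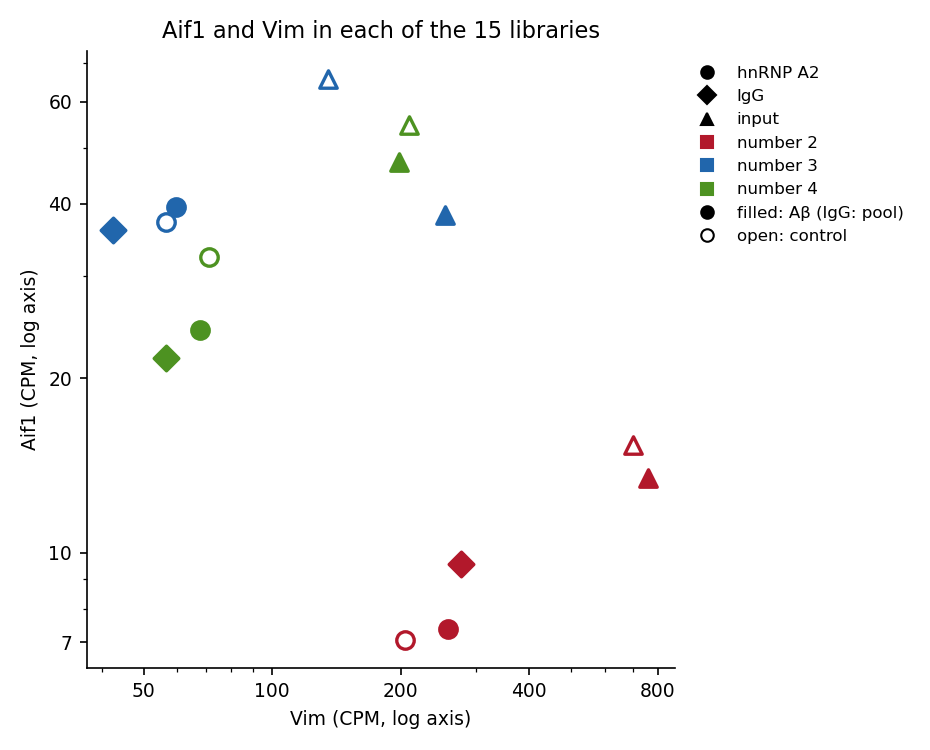
Aif1 against Vim, both in TMM-scaled CPM on log axes, for each of the 15 libraries; the symbol gives the kind of library, the colour the number in the title, and open symbols are control cultures. The 5 libraries numbered 2 lie at the low Aif1 end, from 7.07 to 15.3 CPM, and the other 10 lie at 21.7 CPM or above. The IgG library numbered 2, at 9.54 CPM, rests on 1 Aif1 count with an exact 95% Poisson interval of 0.242 to 53.2 CPM, so its place is uncertain.

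Some other measures of the libraries also differed with number 2. Alignments to several places made up 28.4% and 21.7% of aligned records in the hnRNP A2 libraries numbered 2 of amyloid-β and control cultures, against 13.9% to 19.4% in the other hnRNP A2 libraries. In input they made up 51.3% and 46.8% in number 2, against 53.9% to 67.2% in the others. Genes with at least 1 count numbered 17308 and 17593 in the inputs numbered 2, against 16234 to 17085 in the other inputs. In the hnRNP A2 libraries they did not follow the number, with 19031 in the amyloid-β library numbered 2, the highest, and 18033 in the control library numbered 2, the lowest. Reads that fell on more than 1 gene made up 1.89% and 2.45% in the inputs numbered 2, against 0.998% to 1.16% in the other inputs. The part of these measures in the levels of the 3 genes was not tested.

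The recovery of the marker RNAs with hnRNP A2 was compared with input RNA. Scaling to a common library size means that a lower gene held a smaller share of the recovered RNA, not necessarily less RNA. Gfap in the hnRNP A2 libraries was at 41.8%, 36.2% and 31.9% of the input of the same number in amyloid-β cultures and at 40.2%, 51.4% and 33.2% in control cultures. It averaged 265 ± 68.2 CPM with hnRNP A2 and 692 ± 184 CPM in input (SD, n = 6 each), and the highest hnRNP A2 library stayed below the lowest input. How many of all genes were separated in this way was not counted, so the separation sets Gfap apart from no other gene. The fold change was a log2 value of -1.38 (SE 0.24, edgeR adjusted p = 0.000289).

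Vim in the hnRNP A2 libraries was at 34.0%, 23.5% and 34.2% of same-numbered input in amyloid-β cultures and at 29.3%, 41.8% and 34.1% in control cultures. It averaged 120 ± 88.4 CPM with hnRNP A2 and 375 ± 277 CPM in input (SD, n = 6 each). These ranges overlapped, because the hnRNP A2 libraries numbered 2 exceeded some inputs of other numbers, but each hnRNP A2 library was below its own input in 6 of 6 pairs. The log2 fold change was -1.63 (SE 0.54, edgeR adjusted p = 0.0209). This call was lost without the amyloid-β or the control hnRNP A2 library numbered 4 (edgeR adjusted p = 0.0528 and 0.0522) and without the amyloid-β or the control input numbered 2 (edgeR adjusted p = 0.0576 and 0.0706), with log2 fold changes between -1.50 and -1.14.

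Aif1 in the hnRNP A2 libraries was at 55.0%, 104% and 51.3% of same-numbered input in amyloid-β cultures and at 46.1%, 56.6% and 59.2% in control cultures, so it was below input in 5 of 6 pairs. It averaged 24.7 ± 14.5 CPM with hnRNP A2 and 39.2 ± 21.2 CPM in input (SD, n = 6 each), with overlapping ranges. Its log2 fold change was -0.67 (SE 0.50, edgeR adjusted p = 0.271), which does not pass. A fit with a block for the replicate number gave -0.75, and Aif1 passed as lower (edgeR adjusted p = 0.000432). It also passed with the libraries numbered 3 and 4 alone (log2 fold change -0.64, edgeR adjusted p = 0.0210).

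In the fit without the block, Gfap and Vim were thus 2 of 3 members called lower with hnRNP A2 than in input, where 27.2% of 15303 genes were called lower, 26.7% higher and 53.9% in all. With the block all 3 were called lower, where 31.5% of genes were called lower, 31.9% higher and 63.4% in all. The median log2 fold change was -1.38 over the 3 members and 0.01 over all genes tested. A fold change at or below that of Gfap was found in 9.28% of genes, of Vim in 6.04% and of Aif1 in 26.2%. Scaling by library sizes alone moved the median of all genes by 0.56, and Vim then had a log2 fold change of -1.01 (edgeR adjusted p = 0.112), which was -1.58 relative to that median. Gfap then had -0.78 and still passed (edgeR adjusted p = 0.00935). The unblocked fit counts 6 libraries a side although they share 3 numbers. The block takes out the level of each number, but it still counts the 2 treatments of a number as separate observations.

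**Figure D4:**
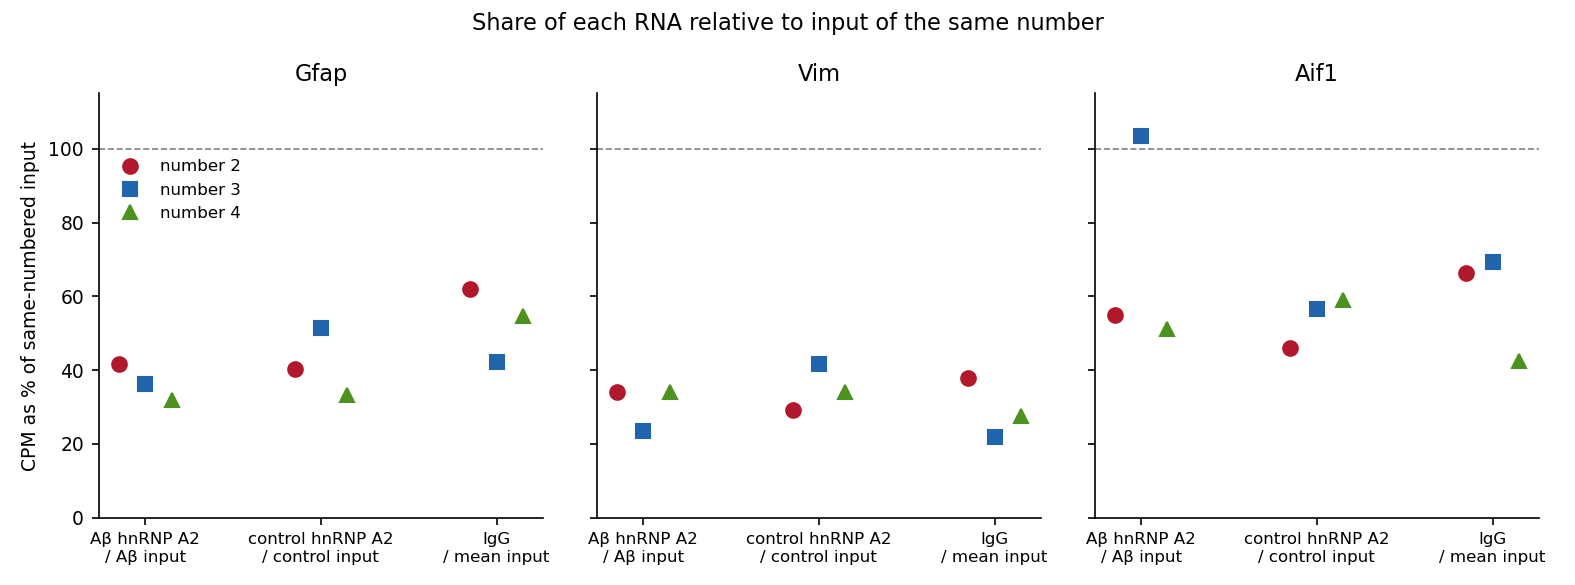
CPM of each gene as a percentage of the input library of the same number, for amyloid-β hnRNP A2 over amyloid-β input, control hnRNP A2 over control input, and IgG over the mean of both inputs; symbols and colours give the number and the dashed line is the input level. Gfap and Vim lie below the line in all 9 points each, from 31.9% to 62.1% for Gfap and from 21.9% to 41.8% for Vim, and Aif1 reaches 104% in the amyloid-β hnRNP A2 library numbered 3.

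The IgG libraries give the background, the share these RNAs take of the RNA recovered without the antibody to hnRNP A2. Vim with IgG was at 38.0%, 21.9% and 27.7% of the mean input of numbers 2, 3 and 4, and its log2 fold change was -1.85 with an SE of 0.69 (edgeR adjusted p = 0.0552). Gfap with IgG was at 62.1%, 42.2% and 54.6% of input (log2 fold change -0.83, SE 0.37, edgeR adjusted p = 0.0985). Aif1 was at 66.3%, 69.4% and 42.4%, the first of these on 1 count (log2 fold change -0.46, SE 0.51, edgeR adjusted p = 0.534). Each gene lay below the mean input in all 3 numbers, though the numbers were not read as pairs between IgG and input. For Aif1 in number 2, the exact 95% Poisson interval of IgG, 0.242 to 53.2 CPM, holds both inputs. None of the 3 passed, while 30.6% of 14205 genes did, 14.3% higher and 16.3% lower. Without the IgG library numbered 4 the 4341 genes behind that share became 2193. With the replicate block Gfap and Vim passed as lower (log2 fold changes -0.88 and -1.77, edgeR adjusted p = 0.0169 and 0.000190), where 5311 genes were called. Aif1 did not pass with the block (log2 fold change -0.76, edgeR adjusted p = 0.0633).

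Without the shallow IgG library numbered 2, Vim and Gfap passed as lower than input, with log2 fold changes of -2.91 and -1.18 (edgeR adjusted p = 0.00881 and 0.0444). That fit keeps the inputs numbered 2, where Vim is high. With the libraries numbered 3 and 4 alone, Vim had a log2 fold change of -1.95 and passed (edgeR adjusted p = 0.000351), and Gfap had -0.95 and did not (edgeR adjusted p = 0.0679). Vim also passed with no expression filter (log2 fold change -1.89, edgeR adjusted p = 3.28e-05) and without the amyloid-β input numbered 3 or 4 or the control input numbered 3 (edgeR adjusted p = 0.0352, 0.0377 and 0.0290), and Gfap without the amyloid-β input numbered 3 (edgeR adjusted p = 0.0498).

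Against IgG directly, none of the 3 RNAs took a larger or smaller share with hnRNP A2 past the threshold, while 13.6% of 15304 genes did, 7.79% higher and 5.83% lower. That share leaned on single libraries: the 2084 genes behind it became 21 without the IgG library numbered 4, 1360 and 969 without the amyloid-β hnRNP A2 libraries numbered 3 and 4, and 1150 and 1063 without the control ones. The mean of both hnRNP A2 libraries of a number stood at 66.1%, 101% and 59.7% of IgG for Gfap in numbers 2, 3 and 4, and the log2 fold change was -0.51 with an SE of 0.31 (edgeR adjusted p = 0.300). For Vim it stood at 83.6%, 136% and 123% (log2 fold change 0.46, SE 0.74, edgeR adjusted p = 0.729). Its sign turned with DESeq2 (-0.10) and without the IgG library numbered 3 (-0.059). For Aif1 it stood at 75.8%, 107% and 131% (log2 fold change -0.24, SE 0.61, edgeR adjusted p = 0.840). Its sign turned with the replicate block (0.13) and without the IgG library numbered 3 (0.26). Gfap thus lay below IgG in numbers 2 and 4, and Vim and Aif1 lay below it in number 2 alone. For Gfap in number 3, the exact 95% Poisson interval of IgG holds both hnRNP A2 values. The same holds for Vim in number 2 and for Aif1 in numbers 2 and 3, so no side is set there. The values of number 2 rest on 55, 29 and 1 IgG counts for Gfap, Vim and Aif1. The 95% confidence intervals of these log2 fold changes ran from -1.19 to 0.18 for Gfap, from -1.17 to 2.09 for Vim and from -1.58 to 1.09 for Aif1, so changes of more than 2-fold in either direction lay within those of Vim and Aif1. With the replicate number as a block, Gfap passed as lower with hnRNP A2 than with IgG (log2 fold change -0.49, edgeR adjusted p = 0.0224), where 35.2% of genes passed, 19.2% as higher and 16.0% as lower. The labels give the IgG samples as pooled over the treatments, though the names of their files carry the amyloid-β mark.

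Amyloid-β changed none of the 3 RNAs past the threshold. Aif1 was lower in the amyloid-β input than in the control input of its number in 3 of 3 pairs, at 87.7%, 58.1% and 86.4% in numbers 2, 3 and 4, and its log2 fold change was -0.46 (SE 0.57, 95% confidence interval -1.74 to 0.82, edgeR adjusted p = 0.954). Leaving out single libraries moved it between -0.90 and -0.072. Gfap in amyloid-β input was at 105%, 133% and 99.7% of control, a log2 fold change of 0.11 with an SE of 0.35 (edgeR adjusted p = 0.970). Vim was at 109%, 187% and 94.9% (log2 fold change 0.20, SE 0.63, edgeR adjusted p = 0.970), so its excess lay mainly in number 3. Of 13793 genes, edgeR called 0.00% and DESeq2 called 0, while 188 had an unadjusted p under 0.05 in edgeR. That is a smaller share than the 0.05 that no effect would give. The SEs above include the spread over the numbers, since these fits leave the number out. With the replicate block the log2 fold changes were 0.15 for Gfap, 0.31 for Vim and -0.41 for Aif1 (SE 0.25 each). None passed (edgeR adjusted p = 0.823, 0.620 and 0.496).

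In the hnRNP A2 libraries the treatment differences of the 3 RNAs were smaller than their spread over the numbers. Gfap with amyloid-β was at 109%, 93.6% and 96.0% of control in numbers 2, 3 and 4, Vim at 127%, 105% and 94.9%, and Aif1 at 105%, 106% and 74.9%. The log2 fold changes were 0.0059 for Gfap (95% confidence interval -0.65 to 0.66), 0.21 for Vim (-1.42 to 1.84) and -0.11 for Aif1 (-1.77 to 1.55), each with an edgeR adjusted p of 1.000. Here too edgeR called 0.00% of 15118 genes and DESeq2 called 0, and 42 genes had an unadjusted p under 0.05 in edgeR. The interaction, which asks whether recovery over input differed with treatment, gave log2 values of -0.12 (SE 0.47) for Gfap, -0.012 (SE 1.05) for Vim and 0.32 (SE 0.99) for Aif1, each with an edgeR adjusted p of 1.000. edgeR called 0.00% of 15303 genes and DESeq2 called 0 there, and 125 genes had an unadjusted p under 0.05 in edgeR. The 42 and 125 genes were also below the share of 0.05. The replicate block changed none of these calls of the 3 genes. It lowered their SEs in the hnRNP A2 libraries to 0.074 for Gfap, 0.081 for Vim and 0.10 for Aif1. Those of the interaction fell to 0.28, 0.30 and 0.29. The SEs and intervals without the block thus include the spread over the numbers.

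**Figure D5:**
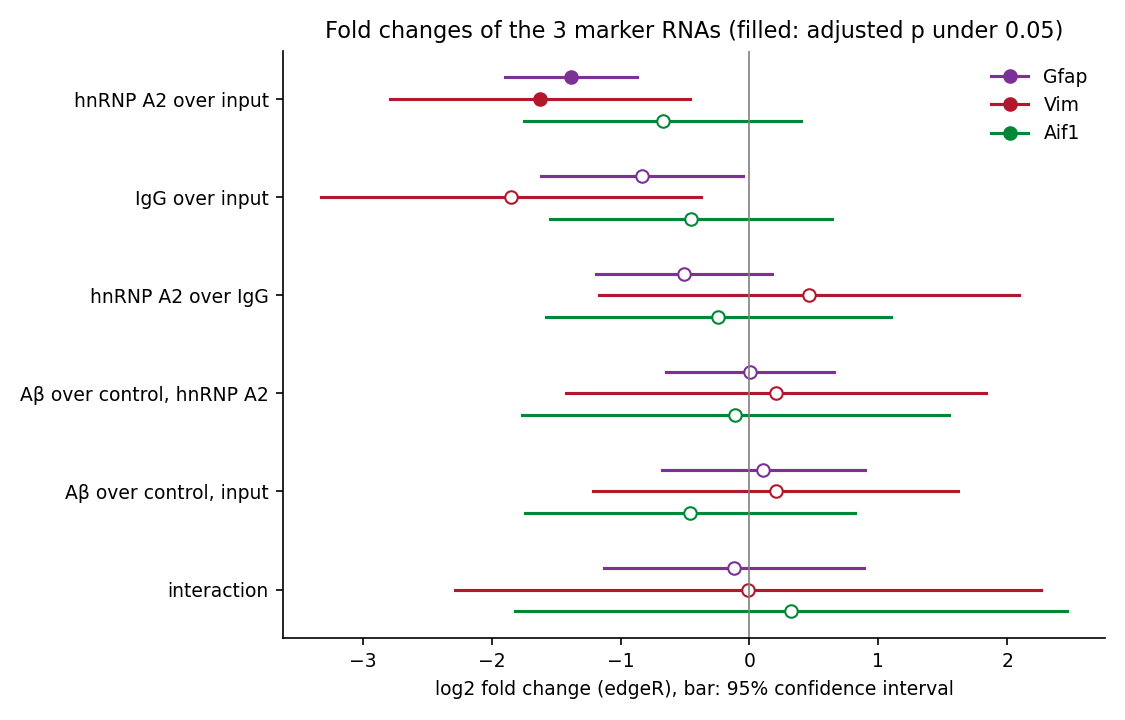
Log2 fold changes of Gfap, Vim and Aif1 with their 95% confidence intervals from edgeR, for 5 comparisons and the interaction of treatment and immunoprecipitation; filled points passed an adjusted p of 0.05. Only Gfap and Vim in hnRNP A2 over input are filled, at -1.38 and -1.63, and the intervals of Vim and Aif1 are wider than those of Gfap in every comparison shown.

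The makeup of the 3 RNAs relative to each other was compared between kinds of library by exact permutation tests of the log2 count ratios, 10 tests in all. The log2 ratio of Gfap to Vim averaged 1.40 ± 0.63 with hnRNP A2 (SD, n = 6) and 1.15 ± 0.79 in input (SD, n = 6), and the 2-sided exact permutation test gave p = 0.535 (adjusted p = 0.774). With IgG it averaged 2.00 ± 1.00 (SD, n = 3), which did not differ past the threshold from hnRNP A2 or from input, with exact permutation p of 0.310 and 0.190 (adjusted p = 0.774 for both). The log2 ratio of Aif1 to Vim averaged -2.30 ± 2.11 with hnRNP A2, -1.97 ± 2.10 with IgG and -3.18 ± 2.00 in input (SD, n = 6, 3 and 6). None of its tests passed either, with an adjusted p of at least 0.774. These tests leave out the pairing by number. Aif1 per Vim was higher with hnRNP A2 than in same-numbered input in 6 of 6 pairs, by 1.35-fold to 4.41-fold, and Gfap per Vim in 4 of 6. With both treatments of a number averaged and signs permuted over the numbers, the exact p was 0.25 for Aif1 to Vim and 0.50 for Gfap to Vim, where 0.25 is the smallest p that 3 numbers allow. Between the treatments, 3 libraries against 3 allow no p under 0.1. The spread over the numbers exceeded each difference between kinds of library in these ratios, except that of Gfap to Vim between IgG and input, where the difference of 0.85 lay between the 2 groups' SDs.

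The gene nearest to each member in pattern was sought over the 12 input and hnRNP A2 libraries. Each is the nearest of many, so its closeness and its order over the numbers follow from the choice. Likeness was the root mean square difference of log2 CPM, each gene centred on its own mean, among 8938 genes with a mean of at least 10 CPM. The nearest gene to Gfap was ENSRNOG00000050794, at 0.1955, where the median gene was at 0.854. The nearest to Vim was ENSRNOG00000018824, at 0.248 against a median of 1.26. It stood at 74.2, 21.0 and 24.0 CPM in the amyloid-β hnRNP A2 libraries numbered 2, 3 and 4 and at 207, 88.5 and 88.95 CPM in the amyloid-β inputs, with number 2 highest in both. The nearest to Aif1 was ENSRNOG00000054033, at 0.2305 against a median of 1.15. It stood at 6.26, 38.7 and 24.8 CPM in the amyloid-β hnRNP A2 libraries and at 11.1, 31.2 and 48.2 CPM in the amyloid-β inputs, with number 2 lowest in both. In the control inputs it stood at 11.55, 49.4 and 75.7 CPM, highest in number 4, where Aif1 was highest in number 3. Among the members, Gfap and Vim lay 0.664 apart, Gfap and Aif1 1.32, and Vim and Aif1 1.93, the most distant of the pairs. These 3 identifiers have no name in the tables used here.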

How the data were processed

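The deposited files hold raw counts of reads per Ensembl gene identifier, 1 table per library, which the authors had not normalized. A stranded kit for total RNA and paired-end reading are stated in the labels' protocols. The submitters' processing notes list DESeq2, HTSeq, R 4.2.2 and STAR 2.7.1 without roles. Not given in the sources used here are the build, annotation and strand setting. In RefSeq's GRCr8 table no other gene overlapped the 3 members, which were found there by symbol. Each table held 30560 genes and 5 summary rows, left out of library sizes and tests, with 65.5% to 91.4% of records.

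Groups and numbers come from the titles. Tests used edgeR 4.0.16 in R 4.3.3 on all genes (TMM, default expression filter, quasi-likelihood F test, Benjamini-Hochberg at 0.05), with only the groups compared. An SE is the log2 fold change divided by the square root of F. The tests were also run on simulated data, drawn independently for each library. Beyond the changes planted, these held no effect of the number, so they do not cover the likeness of same-numbered libraries seen here. Ratios used a pseudocount of 0.5. Alternatives were DESeq2 1.42.0, other scalings, no filter, all 15 libraries, the replicate block and each library left out. The members and lists were chosen with earlier results of these data known. The 7 marker lists were not used beyond the members. Genes named beside the members are those nearest in pattern.

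Deviations from group means correlated between libraries of the same number at 0.361 to 0.600 between the treatments in input, 0.567 to 0.817 in the hnRNP A2 libraries, 0.157 to 0.588 between hnRNP A2 and input, and 0.133 to 0.258 between hnRNP A2 and IgG. For different numbers the correlations ran from -0.494 to 0.077 in input and from -0.69 to 0.281 in the hnRNP A2 libraries. Both ranges lay below the same-number values there. The amyloid-β hnRNP A2 libraries reached 0.299 with inputs and 0.146 with IgG libraries of other numbers, within their same-number ranges. Those of control cultures reached 0.172 and 0.107, below their same-number values. Across kinds of library the correlations thus separate the numbers less clearly. Together with the design text's biological replicates, the numbers were read as pairing these libraries. Between IgG and input the correlations ran from -0.0617 to 0.105 for the same number and from -0.131 to 0.126 for different numbers. There the numbers were not read as pairs. The IgG libraries hold few reads, so these low values cannot show that the numbers do not pair. Counts of every library pair within a group differed by more than sampling noise.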

Additional observations from a re-analysis of the deposited data

How the results depend on the processing

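The calls of Gfap as lower with hnRNP A2 than in input held under every alternative run, with log2 fold changes of -1.53 to -1.29 when a library was left out and -0.78 with library sizes alone, as did the number spreads of Vim and Aif1 in input under all alternatives but the libraries numbered 3 and 4 alone. The replicate block moved these results. Against IgG, hnRNP A2 gave -0.49 for Gfap, now past the threshold, and 0.13 for Aif1, reversed, with 5392 genes called in place of 2084. Aif1 in hnRNP A2 against input gave -0.75, now past it. Gfap and Vim in IgG against input gave -0.88 and -1.77, both now past it, with 5311 of 14205 genes called. The numbers were not read as pairs there. Gfap by treatment in hnRNP A2 gave -0.015, reversed, with 1 gene called in place of 0. The replicate block changed no other call of the 3 genes. DESeq2 gave -0.10 for Vim against IgG, reversed, and 0.79 for the number spread of Gfap in input, now past the threshold. Library sizes alone gave -1.01 for Vim against input, no longer past it, and turned the split of genes against input to 6939 higher and 1984 lower, against 4080 and 4166; for IgG against input it was 3385 and 1213, against 2025 and 2316, and for hnRNP A2 against IgG 1551 and 648, against 1192 and 892. No filter gave -1.89 for Vim in IgG against input, now past the threshold, and 0.0036 for the interaction of Vim, reversed. Library sizes alone moved the median of all genes by 0.17 for the treatment in input, 0.11 against IgG, 0.44 for IgG against input and -0.13 for the interaction. The libraries numbered 3 and 4 alone, chosen after seeing the data, gave -0.077 for Gfap and -0.0080 for Vim by treatment in hnRNP A2 and 0.11 for Aif1 against IgG, all reversed. They also gave -0.64 for Aif1 against input and -1.95 for Vim in IgG against input, both now past the threshold. The number spreads there were 0.14 for Vim and 0.025 for Aif1 in input and 0.25 for Vim with hnRNP A2, none past the threshold, with 441 and 2845 genes called in place of 2921 and 7776. The cause of these moves was not tested.

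Leaving out each library in turn gave ranges that crossed 0 for the treatment effects in input of Gfap (-0.15 to 0.27) and Vim (-0.57 to 1.17), and in hnRNP A2 of Gfap (-0.29 to 0.22), Vim (-0.82 to 1.02) and Aif1 (-0.70 to 0.32), for the interactions of Gfap (-0.42 to 0.15), Vim (-1.04 to 0.81) and Aif1 (-0.27 to 0.75), and against IgG for Vim (-0.059 to 1.24) and Aif1 (-0.52 to 0.26). The treatment effect in input of Aif1 stayed below 0 (-0.90 to -0.072). Calls changed for Vim against input (-2.14 to -1.14), for Gfap and Vim in IgG against input (-1.18 to -0.59 and -2.91 to -1.36) and for the number spread of Gfap in input (0.58 to 1.00). Genes called ranged from 21 to 2428 against IgG (21 without the IgG library numbered 4), 2193 to 4806 for IgG against input (2193 without that library) and 985 to 6622 for the number in input. The log2 ratios crossed 0 for Gfap to Vim by treatment in input (-0.65 to 0.28) and in hnRNP A2 (-0.51 to 0.31), and for Aif1 to Vim by treatment in input (-2.05 to 0.43), in hnRNP A2 (-1.53 to 1.16) and against IgG (-1.49 to 0.54). Depth limited Aif1 in the IgG library numbered 2 to 1 count.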
